A study of Mus musculus with 4 samples.

Results

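The genes described here serve the handling of fatty acids, lipoproteins and retinoids: Cd36, Fabp4, Fabp5, Gpihbp1, Lpl, Rbp7, Scarb1 and Thrsp. These 8 genes were taken by symbol from a list, out of 32286 gene features. The list was chosen with earlier results of these data known, so counts of its genes beside all genes are descriptions, not independent support. All 8 had UMIs (unique molecular identifiers, 1 for each captured RNA molecule) in each of 3 single-cell libraries of mouse vessels. Their name as genes of capillary endothelium held for some of them and not for others. Cd36, Gpihbp1, Rbp7 and Thrsp were highest in capillary-like cells with no overlap with the other classes among 6 compared. Fabp4, Scarb1 and Fabp5 overlapped between capillary-like and venular-like cells, with Fabp5 called higher in venular-like cells in a test that did not hold with either PLV library left out, and Lpl was highest in fibroblast-like and pericyte-like cells.

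Continuous capillaries pass fatty acids from blood to the tissue around them. Lipoprotein lipase, made by cells outside the vessel, is carried to the capillary lumen by the endothelial protein GPIHBP1 and there releases fatty acids from triglyceride-rich lipoproteins. CD36 takes up long-chain fatty acids, FABP4 and FABP5 bind them inside the cell, and SR-BI, the product of Scarb1, binds high density lipoprotein. Lymphatic vessels instead drain lipid that has already left the blood or the gut.

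The study isolated popliteal lymphatic vessels (PLV) and vein of adult WT1xAi9 mice, whose footpads had received Evans blue dye, and sequenced dissociated cells with a 10x Genomics 3′ droplet kit. All libraries came from mice carrying both WT1GFPCre, a Cre knocked into the Wt1 locus, and the Ai9-tdT reporter, so no library lacked these alleles, and each library pooled 2 mice. The 2 PLV libraries were digested for 30 minutes with collagenase I, Dispase II, DNAse and Liberase. The mixed library joined hashed cells of lymphatic and blood vessels (BV) after 60 minutes in collagenase I and Dispase II; its hashtags did not separate the vessels and were not used, so it was treated as 1 sample of both. Vessel, digestion time and enzymes, mice and software version differ together between PLV and mixed libraries and cannot be told apart.

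Filtering left 1909 cells and 9577642 UMIs in PLV replicate 1, 516 cells and 3390010 UMIs in PLV replicate 2, and 994 cells and 7770796 UMIs in the mixed library. No cell barcode was shared between libraries. Cell classes were rebuilt from clusters and marker genes, with the 8 genes kept out of both steps. Capillary-like and venular-like cells were told apart by Ackr1 more than by capillary markers: in capillary-like cells Cd300lg was at 724 to 941 CPM (the gene's UMIs divided by all UMIs of the class, scaled as counts per 1e+06) while Ackr1 and Prox1 were at 0, and in venular-like cells Ackr1 was at 407 to 714 CPM. Cd300lg was at 493 and 255 CPM in the venular-like sums of PLV replicate 1 and the mixed library, and the capillary list of 11 genes summed to 3687 to 4252 CPM in venular-like and 5597 to 6097 CPM in capillary-like cells. In lymphatic endothelial-like cells Prox1 was at 676 to 812 CPM. The capillary-like class held 102 cells in PLV replicate 1, 42 in PLV replicate 2 and 60 in the mixed library, and this order of libraries is kept below. There were 80, 12 and 44 venular-like, 185, 69 and 53 lymphatic endothelial-like, 127, 27 and 58 pericyte-like, 417, 110 and 273 muscle-like and 386, 87 and 278 fibroblast-like cells. Blood endothelium was thus also present in libraries labelled as lymphatic vessel.

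Another 64, 10 and 32 endothelial cells carried mural markers, with Rgs5 at 2184, 1713 and 1277 CPM and medians of 10518, 16496 and 15258 UMIs per cell, and were set aside. They held 33.5%, 22.4% and 61.8% of each library's Gpihbp1 UMIs. Keeping them as capillary-like changed calls for Lpl and Thrsp, given beside those results. Whether they are pairs of cells in 1 droplet was not tested beyond a doublet caller that removed 3 to 10 cells per library.

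Levels below are CPM of the UMIs summed over a class in a library. Class comparisons used edgeR's quasi-likelihood test on these sums, with the library as a block and Benjamini-Hochberg adjustment over 9118 genes. The 12 venular-like cells of PLV replicate 2 were too few to enter that fit, so the venular-like class has 2 sums there and the others 3. Each library is a separate pool of mice. With the library as a block, p-values of class comparisons measure how far class differences vary between those pools, not the spread of levels between them. The estimate of that spread is shared by all classes. Intervals on levels and shares cover counting error only.

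Promoters are shown for Cd36 and Rbp7, both of which were highest in capillary-like cells. The copy of RefSeq (GRCm38.p6) promoters used here held sequence for 3 of the 8 genes. That of Thrsp lay largely in a first exon of the GENCODE annotation and is not shown. The Cd36 window is chr5:17835897-17836146 on the minus strand, inside the annotated Cd36 gene but outside its exons. The Rbp7 window is chr4:149454979-149455218 on the minus strand, directly before the annotated gene. Capitals mark the motifs searched on both strands: AGGTCA (a binding motif of nuclear receptors, which reads TGACCT on the other strand), the CCAAT box, the TATA box (spelled TATAAA), and the GC box, whose letters GGGCGG were also searched on the other strand.
Cd36: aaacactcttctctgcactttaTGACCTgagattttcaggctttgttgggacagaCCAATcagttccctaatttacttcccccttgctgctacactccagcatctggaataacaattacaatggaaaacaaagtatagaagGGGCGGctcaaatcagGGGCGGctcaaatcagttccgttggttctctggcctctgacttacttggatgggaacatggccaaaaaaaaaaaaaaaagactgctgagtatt
Rbp7: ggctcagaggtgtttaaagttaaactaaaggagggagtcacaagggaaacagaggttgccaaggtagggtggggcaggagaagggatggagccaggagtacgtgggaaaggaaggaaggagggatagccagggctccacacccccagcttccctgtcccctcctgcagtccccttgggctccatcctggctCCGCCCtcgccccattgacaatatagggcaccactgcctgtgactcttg
The Cd36 window held an AGGTCA match 228 bases before the start, a CCAAT match at 195 and GGGCGG matches at 109 and 93, and the Rbp7 window held a GGGCGG match at 59. Positions count back from the RefSeq start, which for Rbp7 lies 10 bases inside the GENCODE exon, and those 10 bases are not printed. Of 32851 promoters with 250 bases before the start, 14.02% held the first motif, 33.8% the CCAAT box and 32.7% the GC box, so such matches were common. The TATA box, in 12.4% of promoters, was in none of the 3. GC content was 43.2% in the Cd36 window and 58.3% in the Rbp7 window, against a median of 52.4% over all promoters.

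Capillary-like and venular-like cells had the fewest genes called of the class comparisons. Gpihbp1, Rbp7, Thrsp and Lpl were higher in capillary-like cells and Fabp5 was lower, so 5 of 8 passed, where 4.86% of all genes tested did, 2% higher and 2.86% lower. The count was 3 without PLV replicate 1 and 3 without PLV replicate 2, where Lpl and Fabp5 were lost and 154 and 165 of all genes were called in place of 443. DESeq2 called 5, where it called 5.14% of genes. Mural markers also differed between these classes: the muscle list of 9 genes summed to 698, 1744 and 1864 CPM in venular-like and 323, 374 and 325 CPM in capillary-like cells, and the pericyte list to 144, 6.32 and 399 CPM and 438, 137 and 37.6 CPM. Their part in the differences was not tested. The median log2 fold change was 1.74 over the 8 genes and -0.03 over all genes. Because the 8 genes were chosen with earlier results of these data known, such counts and medians only describe them. Fabp4, Scarb1 and Cd36 did not pass.

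**Figure D1:**
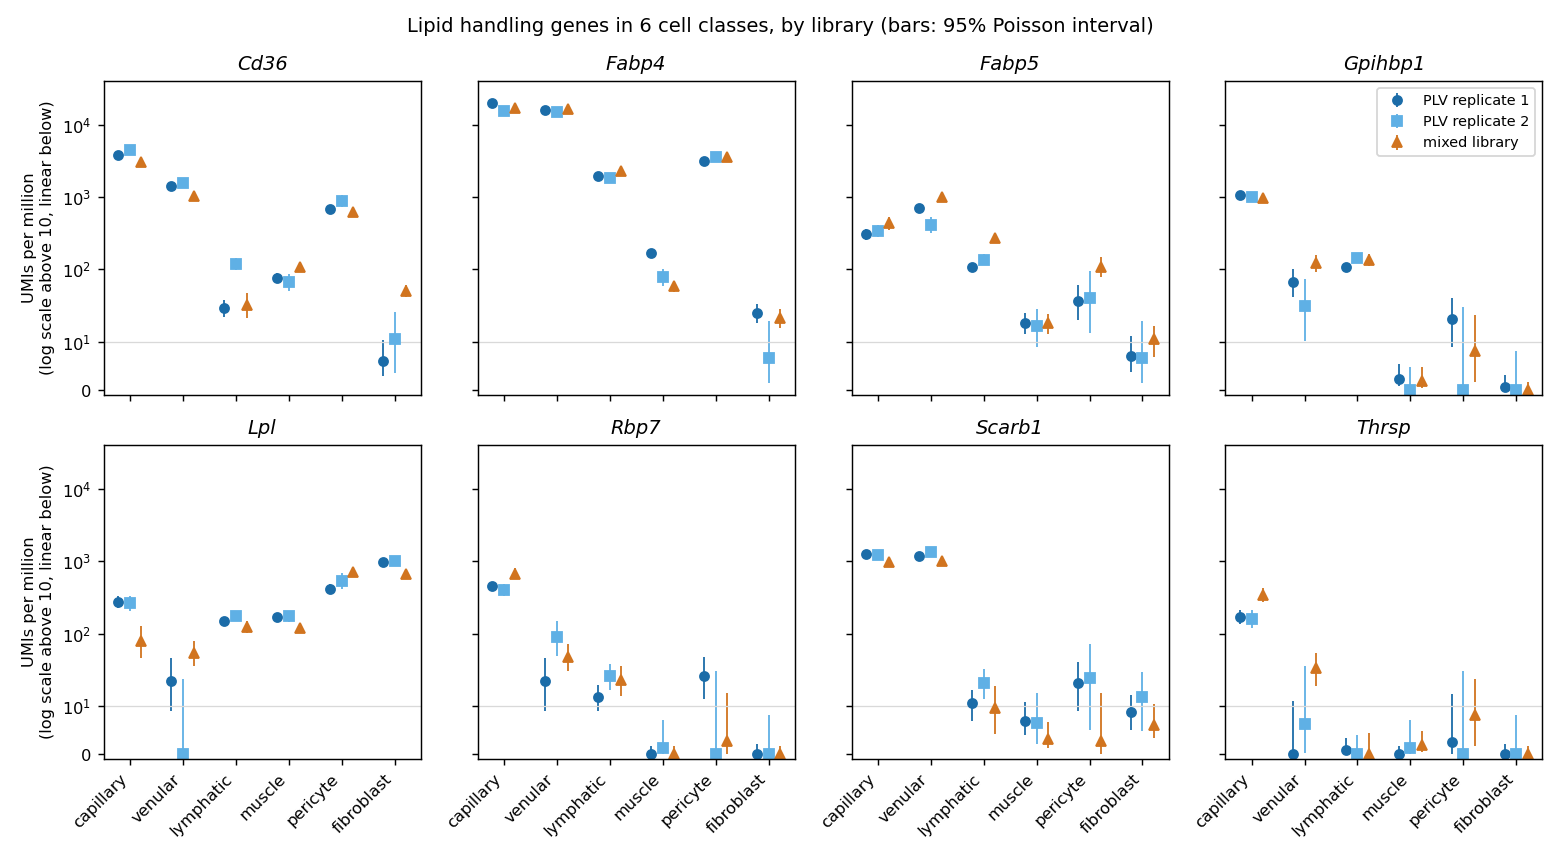
Level of each of the 8 genes (CPM, on an axis that is linear below 10 and logarithmic above) in 6 cell classes, with 1 point per library and bars for 95% Poisson intervals. Gpihbp1, Rbp7 and Thrsp stand highest in capillary-like cells, Fabp4 and Scarb1 are level between capillary-like and venular-like cells, and Lpl is highest in fibroblast-like and pericyte-like cells.

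Gpihbp1 (chr15:75596628-75599481, plus strand, GRCm38) encodes the transporter and luminal anchor of lipoprotein lipase. Its level in capillary-like cells was 1055, 994 and 974 CPM, and in venular-like cells 67.3, 31.6 and 121 CPM. All capillary values were far above all venular values, by 15.7-, 31.5- and 8.04-fold within a library. The log2 fold change was 3.28 (SE 0.34, edgeR adjusted p = 1.31e-05).

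Lymphatic endothelial-like cells held a low but even level of Gpihbp1, at 107, 144 and 135 CPM. These values overlapped those of venular-like cells, and the log2 fold change of lymphatic over venular was 0.32 (95% interval -0.37 to 1.02, edgeR adjusted p = 0.628). Relative to capillary-like cells the lymphatic level was 10.1%, 14.5% and 13.9%. Over the same cells Cd300lg, another capillary marker, stood at 11.8%, 12.4% and 8.50% of its capillary level, and Fabp4 at 10.0%, 11.9% and 13.5%, whereas Cd36 stood at 0.759%, 2.68% and 1.08%. In T-like and B-like cells of PLV replicate 1, which should lack the gene, Gpihbp1 was at 0 among 249882 UMIs, and in nearly empty droplets (barcodes with fewer than 50 UMIs) of the mixed library it was at 42.0 CPM. Whether free RNA added to the lymphatic level was not tested. Pericyte-like cells had 20.7, 0 and 8.14 CPM, muscle-like cells at most 2.31 CPM, and fibroblast-like cells a single UMI, in PLV replicate 1.

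To compare shares of cells at 1 depth, each cell was thinned to 1500 UMIs and shallower cells were left out. Gpihbp1 was then seen in 72.2%, 63.9% and 75% of capillary-like cells (57 of 79, 23 of 36 and 27 of 36). The shares were 9.26%, 16.7% and 14.6% for venular-like and 9.22%, 22.2% and 12.5% for lymphatic endothelium. In T-like cells, with a median of 2652 UMIs before thinning, it was seen in 0 of 47, where capillary-like cells of that library had a median of 3422. Gpihbp1 and Cd36 were seen together in 54 of 79, 23 of 36 and 27 of 36 capillary-like cells, and Gpihbp1 without Cd36 in 3, 0 and 0. Cd36 without Gpihbp1 was seen in 20, 12 and 7, and neither gene in 2, 1 and 2. As few cells lacked Cd36, these counts do not show whether the genes are linked within single cells.

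Lpl (chr8:68880491-68907448, plus strand), the gene of the lipase itself, was highest outside endothelium. Fibroblast-like cells had 962, 993 and 674 CPM, pericyte-like cells 408, 531 and 714 CPM, and capillary-like cells 274, 260 and 80.0 CPM. Fibroblast and pericyte values overlapped each other, and both lay above every capillary value. Capillary-like cells were lower than fibroblast-like cells with a log2 fold change of -2.39 (SE 0.32, edgeR adjusted p = 6.21e-06) and lower than pericyte-like cells with -1.38 (SE 0.33, edgeR adjusted p = 0.0029). The pericyte level was 1.49 and 2.04 times the capillary one in the PLV libraries and 8.93 times in the mixed library, and the log2 fold change was -0.69 without the mixed library. Of each library's Lpl UMIs, fibroblast-like cells held 57.6%, 46.8% and 60.0%, and capillary-like cells 3.98%, 8.14% and 0.715%.

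Within endothelium, Lpl was scarce in venular-like cells, at 22.4, 0 and 54.3 CPM, and at 149, 173 and 124 CPM in lymphatic endothelial-like cells. Nearly empty droplets of the mixed library held Lpl at 145 CPM, above the lymphatic and capillary levels of that library, and T-like and B-like cells of PLV replicate 1 had 2 UMIs of it among 249882. Whether free RNA added to these levels was not tested. Capillary and venular ranges did not overlap, although in the mixed library the ratio was only 1.47. Capillary over venular gave a log2 fold change of 2.15 (SE 0.46, edgeR adjusted p = 0.00995), with values from 1.30 to 4.20 over the alternatives tried. That call was lost without PLV replicate 1 (1.32, adjusted p = 0.325) and without PLV replicate 2 (2.03, adjusted p = 0.102), and with finer clusters (1.30, adjusted p = 0.0583), and the value was 3.38 without the mixed library. Lymphatic over venular gave 1.68 (SE 0.45, edgeR adjusted p = 0.0127), with values from 0.80 to 3.35 over the alternatives tried. It was lost without PLV replicate 1 (1.14), without PLV replicate 2 (1.64, adjusted p = 0.0731) and with finer clusters (0.80, adjusted p = 0.172). The value was 2.65 without the mixed library.

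Capillary against lymphatic Lpl was not called (0.47, 95% interval -0.20 to 1.14, edgeR adjusted p = 0.35). The libraries differed in direction: the capillary level was 1.83 and 1.502 times the lymphatic one in the PLV libraries and 0.643 times in the mixed library. Without the mixed library the comparison passed (0.73, edgeR adjusted p = 0.0118), and it passed with the set-aside cells kept (0.75, edgeR adjusted p = 0.0264).

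Cd36 (chr5:17781690-17888801, minus strand), the fatty acid translocase, fell in steps from capillary-like to fibroblast-like cells. Its level was 3837, 4459 and 3015 CPM in capillary-like, 1438, 1567 and 1033 CPM in venular-like and 672, 875 and 622 CPM in pericyte-like cells. These 3 ranges did not overlap. Muscle-like cells (66.4 to 107 CPM), lymphatic endothelial-like cells (29.1, 119 and 32.6 CPM) and fibroblast-like cells (5.99 to 51.0 CPM) formed a lower group whose neighbouring ranges overlapped.

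Within each library the capillary level of Cd36 was 2.67, 2.85 and 2.92 times the venular one. The fit over all classes gave a log2 fold change of 1.33 (SE 0.56, 95% interval 0.16 to 2.49, edgeR adjusted p = 0.226), so it was not called there. Fitted on these 2 classes alone the value was 1.36 and passed (edgeR adjusted p = 1.47e-15), in a fit that called 15.3% of 5530 genes. That fit held only the 2 libraries with both classes. Its p draws mainly on the spread of other genes and is not further support from replicates. Cd36 also passed with cells thinned to 1500 UMIs (1.78, edgeR adjusted p = 0.0018) and with no filter on low counts (1.33, edgeR adjusted p = 7.62e-06).

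Scarb1 (chr5:125277087-125341094, minus strand) was high in both capillary-like and venular-like cells. Capillary-like cells had 1259, 1197 and 964 CPM and venular-like cells 1163, 1327 and 1017 CPM. The ranges overlapped, and the log2 fold change was -0.22 (95% interval -0.72 to 0.27, edgeR adjusted p = 0.734). Lymphatic endothelial-like cells had 11.0, 20.4 and 9.66 CPM, 115, 58.6 and 99.9 times less than capillary-like cells, with a log2 fold change of 6.43 for capillary over lymphatic (SE 0.28, edgeR adjusted p = 1.74e-11). Mural and fibroblast-like cells were at 24.5 CPM or less. Scarb1 was at 39.0 CPM in nearly empty droplets of the mixed library, above its lymphatic, mural and fibroblast-like levels there. In T-like and B-like cells of PLV replicate 1 it was at 0 CPM. The part of free RNA in the low levels of Scarb1 was not tested.

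Of the intracellular carriers, Fabp4 (chr3:10204088-10208576, minus strand) was abundant in both kinds of blood endothelium. The levels were 19632, 15465 and 17168 CPM in capillary-like and 16025, 14772 and 16387 CPM in venular-like cells. The ranges overlapped, with a log2 fold change of 0.07 (95% interval -0.54 to 0.68, edgeR adjusted p = 0.982). Without the library block this value was -0.05. Next came pericyte-like cells (3161, 3622 and 3624 CPM) and lymphatic endothelial-like cells (1966, 1848 and 2322 CPM), neither overlapping the other. Nearly empty droplets of the mixed library held Fabp4 at 1942 CPM, and T-like and B-like cells of PLV replicate 1 at 24.0 CPM. Whether free RNA added to the lymphatic level of Fabp4 was not tested. In the mixed library, muscle-like cells were at 58.9 CPM and fibroblast-like cells at 21.3 CPM, below those droplets.

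Fabp5 (chr3:10012548-10016607, plus strand) lies 187480 bases from Fabp4 and was distributed differently. Capillary-like cells had 308, 344 and 433 CPM and venular-like cells 698, 411 and 1004 CPM. Venular levels were 2.27, 1.20 and 2.32 times the capillary ones, and the ranges overlapped through the 12 venular-like cells of PLV replicate 2. The log2 fold change of capillary over venular was -1.25 (SE 0.25, edgeR adjusted p = 0.00562). It did not pass without the library block (-1.40, adjusted p = 0.118), without PLV replicate 1 (-1.11, adjusted p = 0.157) or without PLV replicate 2 (-1.32, adjusted p = 0.0528). In cells thinned to 1500 UMIs Fabp5 was seen in 31.6%, 36.1% and 36.1% of capillary-like and 48.1%, 66.7% and 65.9% of venular-like cells, and in 0 of 47 T-like cells. Lymphatic endothelial-like cells had 108, 137 and 268 CPM, below both.

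Rbp7 (chr4:149449687-149454978, minus strand), a cellular retinol binding protein of endothelium and fat, was at 453, 400.2 and 673 CPM in capillary-like cells. Venular-like cells had 22.4, 88.5 and 48.0 CPM and lymphatic endothelial-like cells 13.4, 25.8 and 22.9 CPM. Every capillary value stood above every other, 20.2-, 4.52- and 14.01-fold over venular-like cells in the same library. The log2 fold change over venular-like cells was 3.73 (SE 0.46, edgeR adjusted p = 0.000131). Fibroblast-like cells had no Rbp7 UMI in any library, so capillary-like cells were at least 278-, 60.2- and 475-fold higher, taking 3 UMIs per library as the floor. The 56 arterial-like cells of PLV replicate 1 had 255 CPM of Rbp7, against 453 CPM in capillary-like cells of that library. Nearly empty droplets of the mixed library held Rbp7 at 31.0 CPM, above its lymphatic level there. Whether free RNA added to the levels outside capillary-like cells was not tested.

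Thrsp (chr7:97412938-97417730, minus strand) encodes Spot14, a nuclear protein that promotes fatty acid synthesis in liver and fat. It was at 171, 160.1 and 343 CPM in capillary-like cells, and at 0, 6.32 and 33.4 CPM in venular-like cells. The ranges were well apart, and the log2 fold change was 3.83 (SE 0.53, edgeR adjusted p = 0.000339). It was 3.27 without PLV replicate 1 and 10.19 without the mixed library, which leaves a single venular sum with no Thrsp UMI. In PLV replicate 1, with no venular UMI, the capillary level was at least 17.8-fold higher by the floor of 3 UMIs, and in the mixed library it was 10.3-fold higher. The lymphatic, muscle-like, pericyte-like and fibroblast-like sums held 4 UMIs or fewer in each library.

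Adipocyte markers were read beside Thrsp, Rbp7, Fabp4, Lpl and Cd36, which fat cells also express. The adipocyte list of 9 genes summed to 65.1 to 93.4 CPM in capillary-like cells, 0 to 16.7 CPM in venular-like, 66.7 to 149 CPM in muscle-like and 16.4 to 77.5 CPM in pericyte-like cells. In muscle-like cells the sum was mostly Plin4, at 145, 124 and 57.0 CPM. In capillary-like cells Cfd was the highest of the list, at 40.4, 46.7 and 84.7 CPM, and 7, 7 and 1 of the 9 genes were detected. Adipoq was there at 4.49, 13.3 and 0 CPM, Cidec at 6.73, 13.3 and 0 CPM, Lep at 2.24, 10.0 and 0 CPM and Retn at 4.49, 3.34 and 0 CPM. With no UMI of these 4 genes in the mixed library, up to 14.1 CPM of each is allowed by the floor of 3 UMIs. This bound is above the PLV level of each gene taken singly. It is not a limit of detection, since 1 UMI counted as detected, and the 4 genes together were not tested. The part of fat cell RNA in the levels of Thrsp, Rbp7, Fabp4, Lpl and Cd36 was not tested. Macrophages also express Cd36, Lpl, Fabp5 and Scarb1. A macrophage list of 9 genes summed to 14.1 to 65.1 CPM in capillary-like and 18.8 to 151 CPM in venular-like cells, and its part was not tested.

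**Figure D2:**
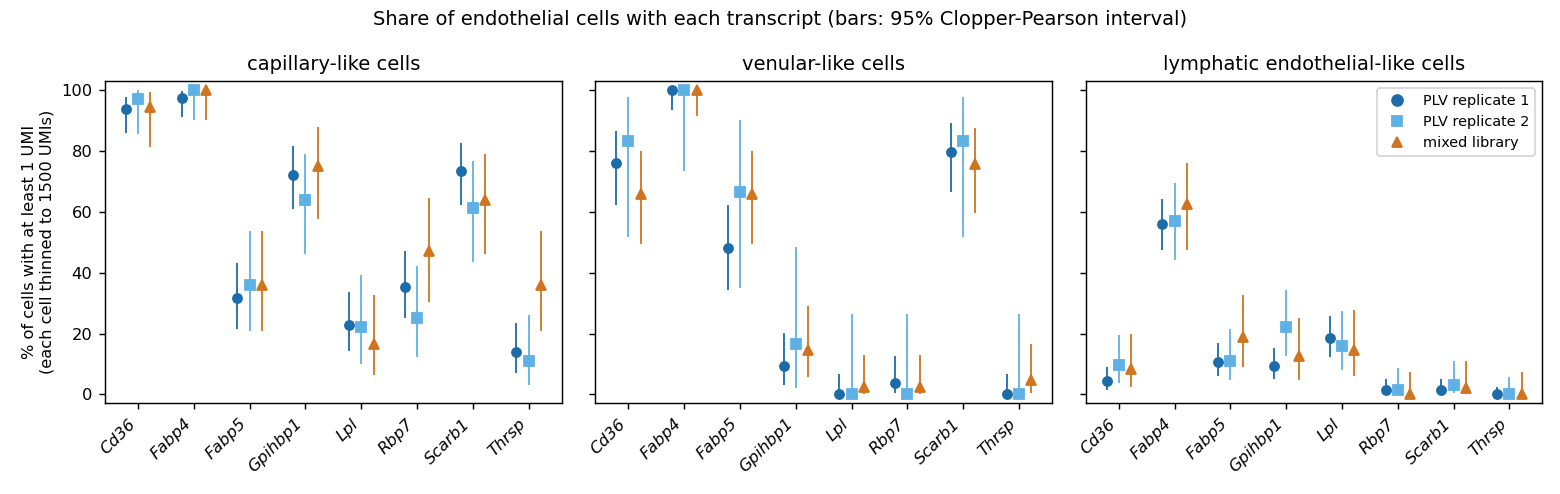
Share of cells with at least 1 UMI of each gene (percent, cells thinned to 1500 UMIs) in capillary-like, venular-like and lymphatic endothelial-like cells, with 1 point per library and bars for 95% Clopper-Pearson intervals. Gpihbp1 is seen in at least 63.9% of capillary-like cells and at most 22.2% of the others, while Fabp5 is seen in more venular-like than capillary-like cells.

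Single capillary-like cells carried several of the genes at once. At 1500 UMIs the median number seen was 5, 4 and 5 of 8 in capillary-like cells, 3, 4 and 4 in venular-like cells, and 1 in every library for lymphatic endothelium. At least 4 were seen in 79.7%, 77.8% and 77.8% of capillary-like cells and in 35.2%, 58.3% and 51.2% of venular-like cells.

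Against lymphatic endothelial-like cells, 7 of 8 genes were higher in capillary-like cells and none lower, where 22.1% of all genes were called and 10.4% of all genes were higher. Lpl was the exception. After Thrsp and Scarb1 the largest difference was that of Cd36, 6.08 (SE 0.59, edgeR adjusted p = 2.54e-07), or 6.78 without PLV replicate 2. Fabp5 had the smallest called difference, 1.15 (SE 0.22, edgeR adjusted p = 0.000628), which did not pass without the library block (1.04, adjusted p = 0.105).

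Lymphatic against venular endothelium gave 6 calls of 8, with Lpl higher in lymphatic endothelial-like cells and 5 genes lower, against 16% of all genes called, 7.39% higher and 8.59% lower. Scarb1 fell by 6.65, Cd36 by 4.75, Fabp4 by 2.99 and Fabp5 by 2.40 on the log2 scale. The Cd36 value was -3.96 without PLV replicate 1 and -5.45 without PLV replicate 2. Rbp7 was at -0.90 (95% interval -2.04 to 0.24, edgeR adjusted p = 0.334; -1.38 and 0.0491 with at least 1000 UMIs per cell) and Gpihbp1 was not called. The Thrsp call (-4.42, edgeR adjusted p = 0.00342) rested on 16 venular UMIs of the mixed library, and the value was 2.50 without that library. Those UMIs came to 33.4 CPM, where nearly empty droplets of the mixed library held Thrsp at 21.0 CPM. Whether free RNA added to that level was not tested.

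**Figure D3:**
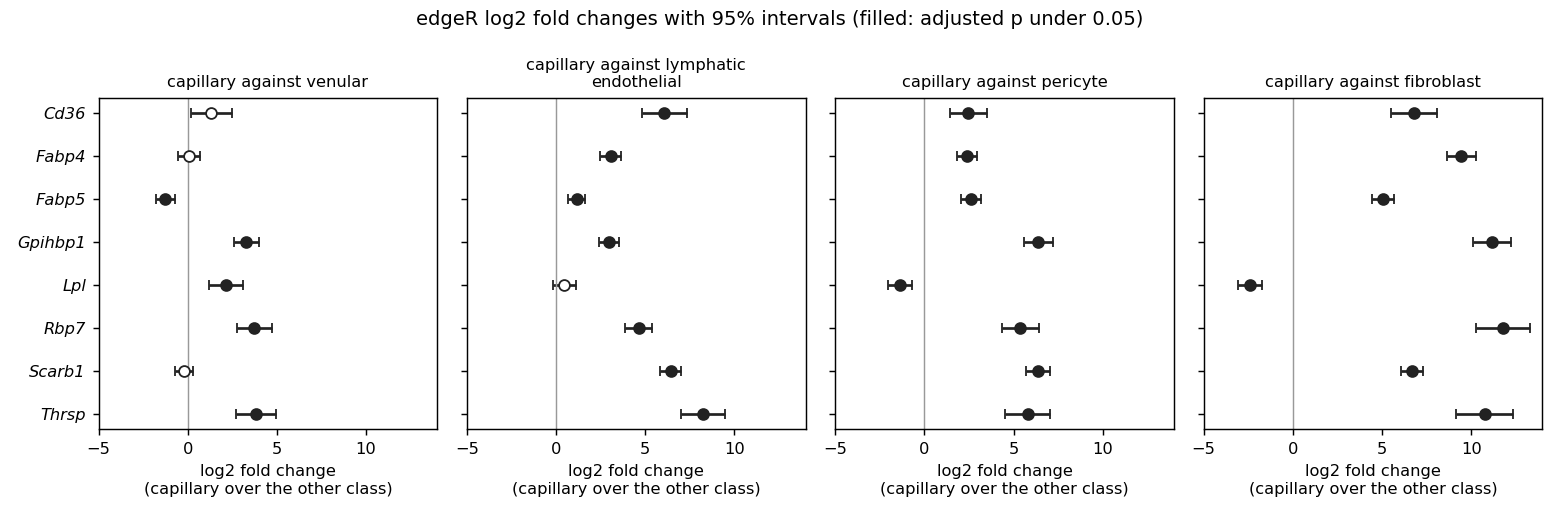
Log2 fold change of capillary-like cells over venular-like, lymphatic endothelial-like, pericyte-like and fibroblast-like cells for each gene, from edgeR, with 95% intervals and filled points where the adjusted p is under 0.05. Lpl lies below 0 against pericyte-like and fibroblast-like cells, and Fabp5 lies below 0 against venular-like cells.

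Outside endothelium, the same genes were generally low, with Lpl as the exception and pericyte-like cells standing between. Capillary-like cells were higher for 7 of 8 genes against pericyte-like cells, where 13.7% of all genes were called higher and 15.4% lower (29.1% together). The same 7 were higher than in muscle-like cells, where 18.5% of all genes were (41.1% called in all), and than in fibroblast-like cells, where 16.3% were higher and 22.3% lower (38.6% in all). Lpl was lower than in pericyte-like and fibroblast-like cells and not called against muscle-like cells (0.33, 95% interval -0.34 to 0.99, edgeR adjusted p = 0.445). It passed against muscle-like cells without the mixed library (0.55, edgeR adjusted p = 0.0436) and with the set-aside cells kept (0.66, edgeR adjusted p = 0.0332).

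Pericyte-like cells, which wrap capillaries, had more Cd36 and Fabp4 than the other stromal classes. Their Cd36 level was 17.5%, 19.6% and 20.6% of the capillary one and their Fabp4 level 16.1%, 23.4% and 21.1%. Among endothelial genes, Pecam1 was in the same cells at 4.41%, 1.51% and 2.26% of its capillary level, Cdh5 at 2.70%, 0% and 1.95% and Gpihbp1 at 1.96%, 0% and 0.836%. The list of 7 endothelial markers summed to 584, 311 and 318 CPM in pericyte-like cells and to 5877, 6397 and 6886 CPM in capillary-like cells, with 5 to 7 of 7 detected. The muscle list of 9 genes summed to 12170, 7579 and 12084.5 CPM in pericyte-like cells. Their pericyte list of 10 genes summed to 9875, 10268 and 6205 CPM. The parts of endothelial and muscle cell RNA in the pericyte levels of Cd36 and Fabp4 were not tested. The capillary level stood above the pericyte one by a log2 fold change of 2.46 for Cd36 (SE 0.50, edgeR adjusted p = 0.000778) and 2.36 for Fabp4 (SE 0.27, edgeR adjusted p = 1.64e-06).

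Fibroblast-like cells were higher than muscle-like cells in Lpl, with a log2 fold change of 2.71 (SE 0.31, edgeR adjusted p = 7.10e-07), and lower in Fabp4, with -2.11 (SE 0.32, edgeR adjusted p = 2.45e-05). Here 4 of 8 genes passed, against 42.2% of all genes (22.9% higher, 19.3% lower), a similar share. The other calls were Cd36 at -1.43 (edgeR adjusted p = 0.0442) and Fabp5 at -0.83 (edgeR adjusted p = 0.0463). Both were lost without the library block (adjusted p = 0.104 and 0.309), without PLV replicate 1 (-0.88 and -0.56) and without PLV replicate 2 (-1.40 and -0.79), while Cd36 was at -3.16 without the mixed library. Against pericyte-like cells fibroblast-like cells differed in 7 of 8 genes, where 29.7% of all genes were called, 16.5% higher and 13.2% lower. Gpihbp1, Rbp7 and Thrsp were lower on few UMIs (11, 11 and 4 in pericyte-like cells in all). Their calls were lost with at most 10% mitochondrial UMIs for Gpihbp1 (-2.11, adjusted p = 0.115), without PLV replicate 1 for Rbp7 (-3.64, adjusted p = 0.286), and for Thrsp without PLV replicate 2 (adjusted p = 0.074), without the mixed library (-3.78, adjusted p = 0.274), without the library block and with thinned cells. Lpl was the only one higher in fibroblast-like cells (1.00, SE 0.30, edgeR adjusted p = 0.0155), a call lost without PLV replicate 1 (0.79, adjusted p = 0.108), without PLV replicate 2 (0.89, adjusted p = 0.184), with at least 1000 UMIs per cell (0.76, adjusted p = 0.0657) and with thinned cells (0.57, adjusted p = 0.138). Cd36 was lower at -4.33 (SE 0.58, edgeR adjusted p = 1.20e-05), or -3.72 without PLV replicate 1 and -6.35 without the mixed library. Fabp4 was lower at -7.09 (SE 0.35, edgeR adjusted p = 8.28e-11).

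**Figure D4:**
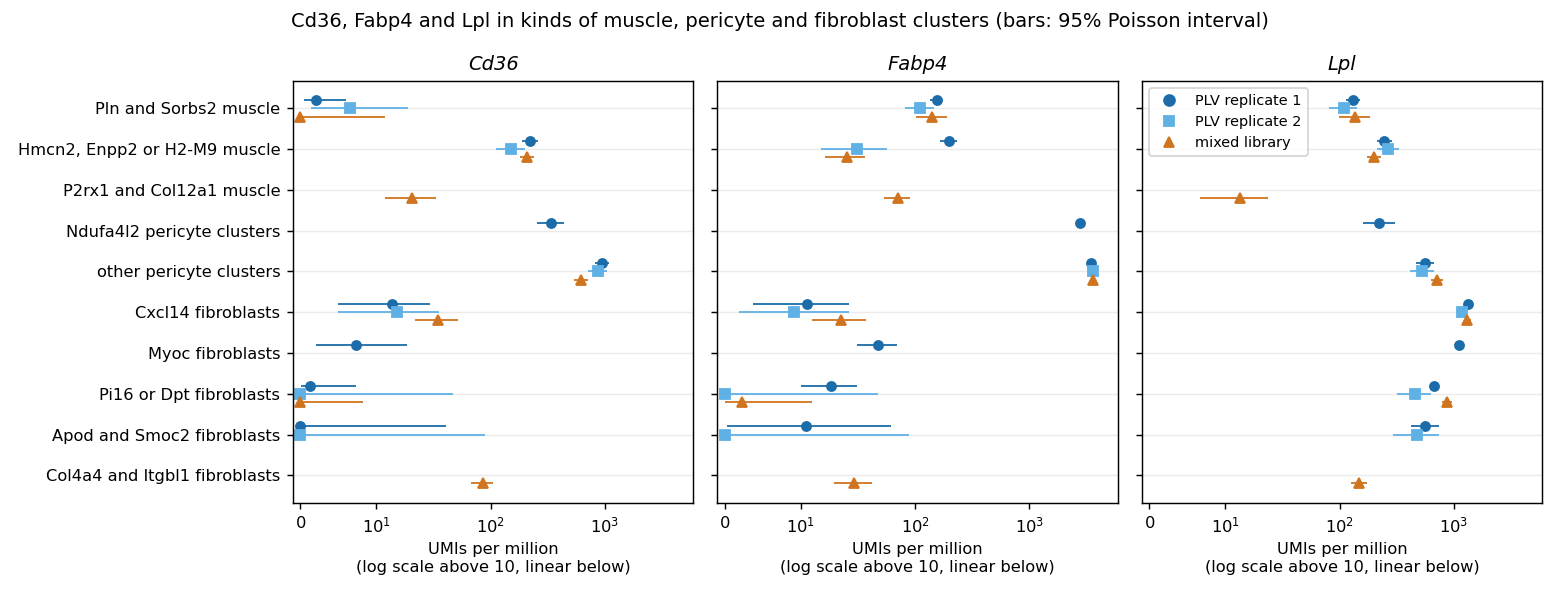
Level of Cd36, Fabp4 and Lpl (CPM) in kinds of muscle-like, pericyte-like and fibroblast-like clusters named by leading genes, with 1 point per library and bars for 95% Poisson intervals. Cd36 is at 152 to 224 CPM in muscle-like clusters led by Hmcn2, Enpp2 or H2-M9 and at most 6.51 CPM in those led by Pln and Sorbs2.

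The classes outside endothelium were not uniform. The kinds given here were formed after their values had been seen and are descriptions only. Among muscle-like cells, Cd36 was at 224, 152 and 209 CPM in clusters led by Hmcn2, Enpp2 or H2-M9 and at 2.07, 6.51 and 0 CPM in clusters led by Pln and Sorbs2. The ranges were far apart in each library. Lpl ran the same way, at 247, 267 and 201 CPM against 132, 108 and 138 CPM. Fabp4 did not: it was at 197, 31.0 and 25.1 CPM in the former and 155, 111 and 141 CPM in the latter. Another kind, led by P2rx1 and Col12a1 and found in the mixed library, had 20.6 CPM of Cd36 and 13.3 CPM of Lpl.

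Among fibroblast-like cells, Lpl was at 1341, 1183 and 1320 CPM in clusters led by Cxcl14 and at 678, 460 and 879 CPM in those led by Pi16 or Dpt. Every Cxcl14 value was above every Pi16 or Dpt value. A cluster of 143 cells led by Col4a4 and Itgbl1, seen only in the mixed library, had 149 CPM of Lpl. In pericyte-like cells of PLV replicate 1, clusters led by Ndufa4l2 had 338 CPM of Cd36 and 224 CPM of Lpl, against 946 and 560 CPM in the other pericyte-like clusters.

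PLV and mixed libraries were compared within each class by edgeR, with the lone mixed sum assumed to vary like the PLV sums. In capillary-like cells 1 of 8 genes passed, where 1% of genes did and 0.473% were lower: Thrsp was lower in PLV libraries with a log2 fold change of -1.27 (SE 0.35, edgeR adjusted p = 0.034). It was not called with the set-aside cells kept (-0.96, edgeR adjusted p = 0.0842), with at most 10% mitochondrial UMIs (-1.18, adjusted p = 0.0558) or with thinned cells (-1.02, adjusted p = 0.527). Lpl had the larger difference, 1.52 (SE 0.44, edgeR adjusted p = 0.0535), which was 0.15 with the set-aside cells kept and passed with at least 1000 UMIs per cell, with at most 10% mitochondrial UMIs and with finer clusters (adjusted p = 0.0324, 0.0244 and 0.0304). The pericyte list of 10 genes summed to 438, 137 and 37.6 CPM in capillary-like cells, where Lpl was at 274, 260 and 80.0 CPM, and 7, 7 and 1 of the 9 adipocyte genes were detected; their part in the difference was not tested. Gpihbp1, Cd36, Fabp4 and Scarb1 differed by 0.24 or less in size, with 95% intervals of -0.83 to 0.54, -0.42 to 0.90, -0.82 to 0.44 and -0.56 to 0.82. Rbp7 was at -0.87 and Fabp5 at -0.63, neither of them called.

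Fabp5 was lower in PLV libraries in lymphatic endothelial-like cells (108 and 137 against 268 CPM; -1.36, SE 0.29, edgeR adjusted p = 0.00054), the single call among 7 genes tested where 2.2% of genes passed (1.12% higher and 1.08% lower). It was lost with thinned cells (adjusted p = 0.454). In pericyte-like cells it was at 36.2 and 40.9 against 109 CPM (-1.72, SE 0.48, edgeR adjusted p = 0.0304), the single call of 4 tested where 1.38% passed and 0.696% were lower. That call was lost with no filter on low counts (adjusted p = 0.0789), with at least 1000 UMIs per cell (0.0802), with at most 10% mitochondrial UMIs (0.0673) and with thinned cells (0.93). The mixed value was the highest in both classes, and nearly empty droplets of that library held Fabp5 at 130 CPM. In muscle-like cells 2 of 5 genes passed, where 15.8% did, 7.4% higher and 8.44% lower: Fabp4 at 0.90 (edgeR adjusted p = 0.0055) and Cd36 at -0.81 (edgeR adjusted p = 0.00984). Fabp4 was at 169 and 77.9 CPM in the PLV libraries, which differed from each other by more than the lower did from the mixed library (58.9 CPM), and its value was 1.93 with at least 1000 UMIs per cell and 1.90 with at most 10% mitochondrial UMIs. Both calls were lost with thinned cells. The muscle-like class did not hold the same clusters in each library, as the kind led by P2rx1 and Col12a1 was found in the mixed library. In neither of the other kinds given above did the mixed Cd36 level exceed both PLV levels. For Fabp4 the mixed level was below both PLV levels in the kind led by Hmcn2, Enpp2 or H2-M9. It lay between them in the kind led by Pln and Sorbs2. The part of cluster make-up in these differences was not tested. In fibroblast-like cells 1 of 5 passed, where 11.8% did (4.03% higher and 7.73% lower). That was Cd36, at 5.99 and 11.1 CPM in PLV libraries and 51.0 CPM in the mixed library (-3.35, SE 0.47, edgeR adjusted p = 3.65e-05). The value was -1.71 with at most 10% mitochondrial UMIs (adjusted p = 0.00375) and -2.73 with thinned cells, where it was not called (adjusted p = 0.0713). DESeq2 called none of these: it called 0.0182% of genes in capillary-like, 0.179% in lymphatic endothelial-like, 1.63% in muscle-like, 0.0296% in pericyte-like and 2.15% in fibroblast-like cells, and for Cd36 in fibroblast-like cells it gave no adjusted p. The venular-like class had 1 sum of each kind and was not tested.

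Other genes of lipid handling came from a list of 83, of which 59 were tested. Capillary-like and venular-like cells differed in 5 of the 59 (8.47%), against 4.86% of all genes, with Aqp7, Nrp1 and Tcf15 higher and Apoe and Scd2 lower. Aqp7, a glycerol channel, was at 299, 360.2 and 80.0 CPM in capillary-like and 9.61, 25.3 and 6.26 CPM in venular-like cells (log2 fold change 4.35, SE 0.54, edgeR adjusted p = 0.000135). Tcf15, which with Meox2 acts as a transcription factor of endothelial fatty acid uptake, was at 258, 257 and 245 CPM against 32.0, 37.9 and 41.8 CPM (2.49, SE 0.46, edgeR adjusted p = 0.00405). In both genes all capillary values stood above all venular values. Nrp1, a co-receptor of VEGF-B, was also higher (1.29, edgeR adjusted p = 0.0245), and Apoe (-1.51, edgeR adjusted p = 0.0168) and Scd2, a fatty acid desaturase (-1.37, edgeR adjusted p = 0.0111), were lower. Scd2 was at 85.3, 60.03 and 56.4 CPM in capillary-like and 186, 56.9 and 96.03 CPM in venular-like cells, so the ranges overlapped and PLV replicate 2 showed no lower capillary level.

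Meox2 itself was at 231, 273 and 89.4 CPM in capillary-like and 218, 221 and 209 CPM in venular-like cells, overlapping, with a log2 fold change of -0.32 (edgeR adjusted p = 0.806). Over lymphatic endothelial-like cells it was higher by 1.90 (SE 0.38, edgeR adjusted p = 0.000962). Pparg, a nuclear receptor that drives Cd36 and Fabp4 in fat, did not pass against venular-like cells (0.92, edgeR adjusted p = 0.459) and was higher than in fibroblast-like cells by 3.60 (SE 0.54, edgeR adjusted p = 2.28e-05). Cav1, the caveolar coat protein, was at 0.77 over venular-like cells (edgeR adjusted p = 0.0837), and Angptl4, an inhibitor of lipoprotein lipase, at 0.81 (edgeR adjusted p = 0.561). Lmf1, a maturation factor of the lipase, was at 4.49 to 9.41 CPM in capillary-like and 8.16 to 13.3 CPM in fibroblast-like cells and was too low to enter the class comparisons, and Mfsd2a had no UMI in the endothelial, pericyte-like or fibroblast-like sums.

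Against lymphatic endothelial-like cells, where 10.4% of all genes were higher and 11.7% lower, edgeR called 0 of the 8 tested genes of fatty acid entry, 4 of which had an unadjusted p under 0.05. Of the storage and lipolysis genes 5 of 8 were higher (Aqp7, Lipe, Mgll, Plin2 and Pnpla2) and 1 was lower (G0s2, an inhibitor of lipolysis), and of the regulators 7 of 11 were higher and 1 lower. Of the lipoprotein receptor and transcytosis genes 2 of 9 were higher (Cav1 and Cavin1) and 3 lower, of synthesis genes 1 of 8 was higher and 1 lower, and of oxidation genes 1 of 7 was higher and 1 lower. Of the lipase partners 1 of 3 was lower (Apoe), and 0 of 2 efflux and 0 of 3 retinoid binding genes were called, with 1 of each at an unadjusted p under 0.05. Against venular-like cells, edgeR called 0 of the 8 genes of fatty acid entry and 0 of the 9 of lipoprotein receptors and transcytosis, with 2 and 1 at an unadjusted p under 0.05. Over the whole list, capillary-like cells were higher in 16 and lower in 8 of 59 genes against lymphatic endothelial-like cells (22.1% of all genes called), and higher in 17 and lower in 20 against fibroblast-like cells (38.6% of all genes called).

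The genes whose pattern was most like each member are given as a description, by Pearson's r of log2(CPM + 10) over the 17 sums, among 6417 genes; sums of 1 library share its depth and digestion. Rbp7 was most like Gpihbp1 (r = 0.9501), the only case where the closest gene was another of the 8. Gpihbp1 was most like Ushbp1 (0.969), Cd36 like Tspan15 (0.964), Fabp4 like Ets1 (0.969), Fabp5 like Gnai2 (0.959), Scarb1 like Csf2rb (0.990) and Thrsp like Cfd (0.989). Lpl was most like Phldb1, with a lower r of 0.878, and its r with each of the other 7 was negative, from -0.21 with Thrsp to -0.69 with Fabp5. The next closest genes were Itpripl1 and Flt1 for Cd36, Myh9 and Adgrf5 for Fabp4, Grrp1 and Abcg2 for Fabp5, and Cmtm8 and Jcad for Gpihbp1. For Rbp7 they were Notch4 and Prom1, for Scarb1 Exoc3l2 and B3gnt3, for Thrsp Rgcc and Cldn15, and for Lpl Atrnl1 and Laptm4a.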

How the data were processed

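The deposited files hold whole-number UMI counts per gene and cell; per the file headers they were made with Cell Ranger 6.1.2 for the PLV libraries and 4 for the mixed library, and the submitters' processing notes name Seurat and the GRCm38 build. The filtering below is not theirs. Cells with at least 500 UMIs and 300 genes, at most 15% mitochondrial and 20% haemoglobin UMIs were kept, and doublets called by Scrublet in scanpy 1.11.5 were removed (10, 3 and 3 cells). The unfiltered mixed matrix held 896360 barcodes, the PLV matrices 2649 and 730. Median UMIs per kept cell were 3372, 4886.5 and 6162.

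Each library was clustered alone (2000 variable genes, 50 components, Leiden resolution 1 with leidenalg 0.10.2), and endothelial clusters were clustered again. The 8 genes, the lipid list, sex-linked, haemoglobin and tdTomato genes took no part. A cluster was named from at least 3 markers raised 2-fold, a venular one also needed 100 CPM of Ackr1, and endothelial clusters with 5 raised mural or fibroblast markers were set aside; these naming rules were settled after clusters had been seen. The members and lists were chosen with earlier results of these data known.

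UMIs were summed per library and class, leaving out classes under 20 cells, and tested with edgeR 4.0.16 (R 4.3.3; TMM factors, filterByExpr, quasi-likelihood F test, adjusted p under 0.05). PLV and mixed libraries were compared in each class without a block. The test was tried on simulated data, whose outcome is not reported here and on which no result above rests. Named besides the 8 genes were list genes that passed between capillary-like and venular-like cells with at least 20 UMIs in 2 libraries, list genes set by name whatever their values (some are not reported here), and the 3 most correlated genes of each member. DESeq2 1.42.0, other filters, scaling, clustering, blocks and omitted libraries were tried as alternatives. Intervals are 95% Poisson for levels and Clopper-Pearson for shares. Hashtag counts were not used. Promoter sequences are from RefSeq and gene positions from GENCODE, both on GRCm38.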

Additional observations from a re-analysis of the deposited data

Results flagged for a closer look

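The difference in Cd36 between mixed and PLV libraries was not the same in fibroblast-like as in capillary-like cells. In fibroblast-like cells the level was 5.99 and 11.1 CPM in the PLV libraries and 51.0 CPM in the mixed library, while in capillary-like cells it was 3837 and 4459 against 3015 CPM. The change from PLV to mixed was larger in fibroblast-like than capillary-like cells with a difference in log2 fold change of 3.52 (SE 0.63, edgeR adjusted p = 0.00364), in a model with a class by library kind term added after the data had been seen, which called 67 of 9118 genes (0.735%). The mixed side is 1 library, and the term was fitted after this difference had been seen, so its p describes the difference and is no independent support for it. Of the 8 genes in 5 classes it was the single one with an adjusted p under 0.05. Within fibroblast-like cells the log2 fold change of PLV over mixed, -3.35, was -1.71 with at most 10% mitochondrial UMIs and -2.73 with thinned cells. The mixed library held a cluster of 143 fibroblast-like cells led by Col4a4 and Itgbl1, absent from the PLV libraries, with Cd36 at 85.1 CPM. In Cxcl14 fibroblast-like clusters, present in all libraries, Cd36 was at 13.6 and 15.1 CPM in the PLV libraries and 34.3 CPM in the mixed library. Nearly empty droplets of the mixed library held Cd36 at 132 CPM, and the part of free RNA in the difference was not tested.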

How the results depend on the processing

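Of 1135 member values recomputed under alternatives, 1059 kept their direction and their side of the threshold, 50 were no longer called, 13 became called and 13 changed sign; for 9 more DESeq2 gave no adjusted p. Capillary against venular gave 3 to 5 called genes when 1 library was left out (3 without PLV replicate 1 and 3 without PLV replicate 2), and the count over all genes, 443, was 252 without the replicate block (library), 844 with only these classes, 214 with thinned cells and 154 and 165 without PLV replicates 1 and 2. Fibroblast against muscle gave 2 called genes without the replicate block and 2 to 4 with a library left out, and fibroblast against pericyte gave 4 with only these classes, where fewer genes were tested.

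For PLV against mixed, DESeq2 called 0 in capillary-like, lymphatic endothelial-like, muscle-like, pericyte-like and fibroblast-like cells, and thinning to 1500 UMIs also gave 0 in each. In capillary-like cells the count was 0 with no filter on low counts and 0 with the set-aside cells kept, and 2 with at least 1000 UMIs per cell and 2 at Leiden resolution 2. In pericyte-like cells it was 0 with no filter, 0 with at least 1000 UMIs and 0 with at most 10% mitochondrial UMIs. Over all genes in capillary-like cells, 55 were called by edgeR, 1 by DESeq2 and 0 with no filter.

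Signs changed only for values that were not called, other than Thrsp in lymphatic against venular cells, which ran from -7.14 to 2.50 with a library left out. These were Fabp4 in capillary against venular cells (-0.050 without the replicate block), Gpihbp1 in lymphatic against venular cells (-0.052 at resolution 2, -0.17 thinned), Rbp7 in fibroblast against muscle cells (-1.79 to 0.0073 with a library left out, 0.41 with at most 10% mitochondrial UMIs), Gpihbp1 in that comparison (0.62 under the same limit) and Scarb1 in fibroblast against pericyte cells (-0.89 to 0.42 with a library left out). For PLV against mixed they were Cd36 in lymphatic endothelial-like (-0.036) and pericyte-like cells (-0.41) when thinned, and in fibroblast-like cells Lpl (-0.039, no filter), Scarb1 (-0.041, at least 1000 UMIs) and Fabp4 (0.28, at most 10% mitochondrial UMIs). Except where fewer genes or samples entered, the cause was not tested.

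Replicate numbers do not pair these samples, since the mixed library has a single number; the block is the library whose cells the classes share. Leaving a library out of PLV against mixed leaves no spread within a kind or no mixed library, and was not run. The venular-like class rests on 2 sums, and leaving out PLV replicate 1 or the mixed library leaves it 1, assumed to vary like the other classes. Depth limits Thrsp and Rbp7 outside capillary-like cells, where sums held few UMIs.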

Other observations

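Outside the 6 classes, the 56 arterial-like cells of PLV replicate 1 had 1106 CPM of Cd36, 8195 of Fabp4, 217 of Gpihbp1, 255 of Rbp7, 130.1 of Scarb1 and 114 of Fabp5. Gpihbp1, Rbp7 and Cd36 were thus below the capillary level of that library by 4.87-, 1.78- and 3.47-fold, and Scarb1 by 9.68-fold. A cluster of 27 endothelial cells of the mixed library, led by Vwf (3115 CPM) and Cytl1 (2169 CPM) and left without a name, had 13634 CPM of Fabp4 and 681 of Fabp5 with 162 of Cd36 and 59.4 of Scarb1. Its venular list of 11 genes summed to 6571 CPM, above the 4817, 4663 and 5058 CPM of the venular-like class, which did not include it. The cluster had no UMI of Gpihbp1, Lpl, Rbp7 or Thrsp, which allows up to 11.9 CPM of each. Both groups come from 1 library and have no replicate.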
